A study of Mus musculus with 2 samples.

Results

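Saa3 and Lcn2 are mouse genes of the acute-phase response, the switch in protein synthesis that follows an inflammatory stimulus. They were chosen by name, 2 of 31053 genes counted, and Saa3 was chosen partly because its level differed between the groups in these same files, so its difference is described here and not tested. Single cells were measured in bone marrow cells of strain 129Sv grown with 50 ng/ml of the macrophage growth factor M-CSF and 10% serum. On day 7 the cultures received either a truncated form of Tamm-Horsfall protein that does not polymerize (THP, also called uromodulin, a kidney protein; 1 µg/ml) or the 5% dextrose vehicle, for 18 hours. Each group was 1 library, so no difference below has a replicate check, and treatment cannot be told apart from culture dish or library preparation. The labels name neither the number of animals nor their age.

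Serum amyloid A proteins are small lipid-carrying proteins secreted during inflammation. The liver makes most of the circulating forms, whereas Saa3 is the form known from mouse macrophages and other cells outside the liver, where bacterial products and cytokines such as IL-1 and TNF switch it on. Lcn2 encodes lipocalin 2, also called neutrophil gelatinase-associated lipocalin, which binds bacterial siderophores and so withholds iron from bacteria. Neutrophils load it into their specific granules as they mature, and other cells can make it when the NF-kB cofactor IκBζ and C/EBP factors are active.

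Both genes lie on minus strands. In the GENCODE M21 annotation of GRCm38, Saa3 (ENSMUSG00000040026) spans chr7:46711998-46715700 and Lcn2 (ENSMUSG00000026822) spans chr2:32384633-32388252. The upstream sequences are shown because C/EBP factors are among the known regulators of both genes and their transcripts are described with the values below. They run from position -250 to position -61 relative to the RefSeq start site (RefSeq, GRCm38.p6; both members matched), at chr7:46715737-46715926 and chr2:32387800-32387989, and are written 5′ to 3′ along the gene. An alternative Lcn2 transcript in GENCODE starts further upstream, so its whole window lies inside that annotated transcript, and part of it in an exon. Capitals mark matches to the C/EBP letters TTNNGNAA on either strand.

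Saa3: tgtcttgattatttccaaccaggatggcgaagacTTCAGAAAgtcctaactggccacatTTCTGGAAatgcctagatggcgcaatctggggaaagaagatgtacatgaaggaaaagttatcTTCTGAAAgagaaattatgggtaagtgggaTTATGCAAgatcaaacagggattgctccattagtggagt

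Lcn2: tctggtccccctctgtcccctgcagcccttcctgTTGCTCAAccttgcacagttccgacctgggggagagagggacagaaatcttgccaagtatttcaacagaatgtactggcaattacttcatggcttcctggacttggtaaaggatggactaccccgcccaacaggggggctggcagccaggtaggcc

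The Saa3 window held 4 such matches, all on the strand of the gene, and the Lcn2 window held 1, on the opposite strand. At least 1 match was present in 31.2% of 32851 mouse promoter windows of the same length, and at least 4 were present in 0.435%. The NF-kB pattern (GGGA and CC with any 4 bases between), the STAT letters TTCNNNGAA and the AP-1 letters TGANTCA, searched on both strands, were absent from both windows and present in 13.03%, 5.51% and 5.22% of all windows. A match describes letters and not a bound site, and no match says only that these letters are not in this window.

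Of 13193 barcodes with THP and 11584 with vehicle, 12123 and 10978 passed the filters, with medians of 16113 and 17223 unique molecular identifiers (UMIs, each counting 1 captured RNA molecule). The libraries had 42 barcode sequences in common. Cells were placed in gates by how many markers of each cell type they carried, with neither Saa3 nor Lcn2 among the markers. The cultures were labelled macrophages, but the macrophage gate held 5137 THP cells (42.4%) and 2854 vehicle cells (26.0%), and a neutrophil gate held 1510 (12.5%) and 1921 (17.5%). Cells set apart for conflicting marker lists were 1426 (11.8%) with THP and 2522 (23.0%) with vehicle, which affects these shares unequally. The macrophage list was passed by 6019 and 4102 kept cells, whatever other lists they passed. No list was passed by 1284 (10.6%) and 814 (7.41%). The median log2 ratio of 8012 genes compared over all cells was -0.18, and it moved to 0.11 under TMM scaling and 0.10 under RLE scaling. Levels are counts per 1000000 UMIs (CPM) summed over cells, with exact 95% Poisson intervals that cover counting error only.

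Saa3 was higher in the THP library in every gate with enough UMIs to compare. Over all cells it stood at 125.9 CPM (124.5 to 127.4) with THP against 11.12 CPM (10.67 to 11.59) with vehicle, an 11.3-fold difference (10.9 to 11.8). On the scale of log2(CPM + 1) this ratio was 3.39, the second highest of the 8012 genes. Being 2-fold or more higher with THP was true of 0.911% of these genes and 2-fold or more lower of 2.97%, but Saa3 was selected on this value and nothing is read from its rank.

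**Figure D1:**
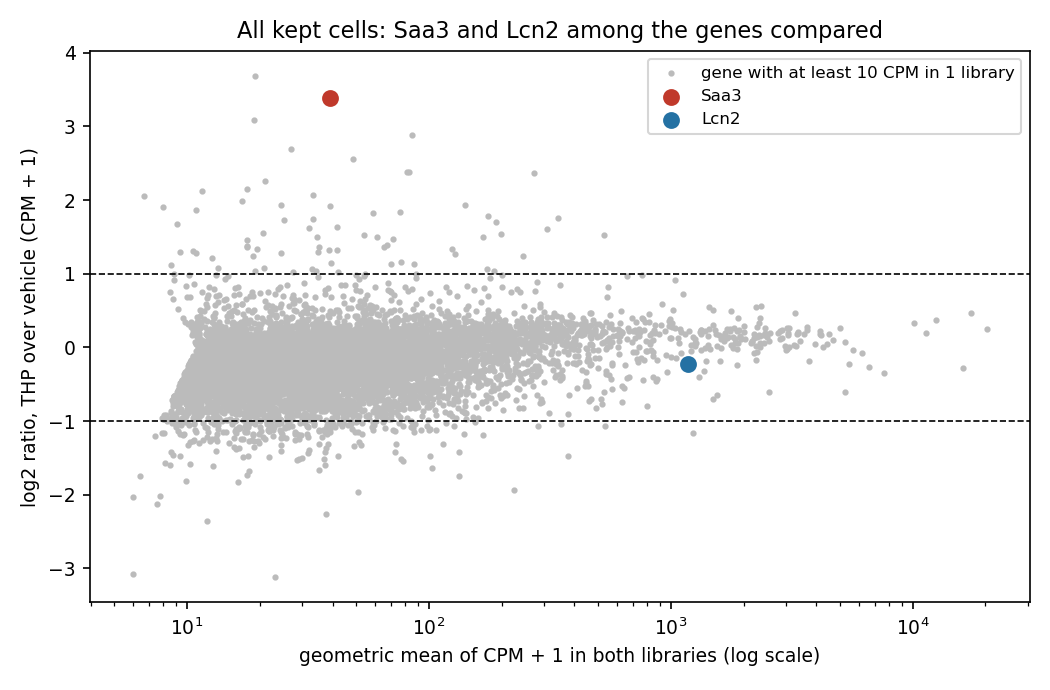
Log2 ratio of THP over vehicle (CPM + 1, vertical axis) against the geometric mean level (log horizontal axis) for the 8012 genes with at least 10 CPM in 1 library, all kept cells, with dashed lines at 2-fold. Saa3 sits near the top at 3.39 and Lcn2 at -0.23 (0.06 under TMM scaling), within the cloud of other genes.

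Macrophage-gate cells carried most of the Saa3 RNA of the THP library. Their level was 139.9 CPM (137.9 to 142.0) with THP and 12.13 CPM (11.33 to 12.98) with vehicle, 11.5-fold apart (10.8 to 12.4), where 0.98% of 7857 genes reached 2-fold upward. These cells gave 62.7% of all Saa3 UMIs with THP and 36.5% with vehicle. The gate also held 126781443 of the 224825484 UMIs of all genes with THP and 69566936 of 207662132 with vehicle. Its Saa3 level was therefore close to that over all cells, 125.9 CPM and 11.12 CPM. Cells set apart for conflicting marker lists gave 17.4% and 36.2% of the Saa3 UMIs. Macrophage-gate cells with 10 or 11 of the 11 macrophage markers had 153.9 CPM against 8.11 CPM, and those with 6 or 7 markers had 109.4 CPM against 11.45 CPM. The difference was therefore present at both ends of the gate.

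Neutrophil-gate cells had Saa3 at nearly the macrophage level in the THP library and below it in the vehicle library. The neutrophil level was 135.1 CPM (126.8 to 143.9) against 6.67 CPM (5.08 to 8.61), a 20.3-fold difference (15.6 to 26.8). Upward changes of 2-fold were reached by 1.57% of the 6951 genes compared in this gate. Relative to the macrophage gate of the same library, the neutrophil level was 0.966 times as high (0.904 to 1.03) with THP and 0.550 times as high (0.415 to 0.716) with vehicle. The neutrophil value rested on few molecules, 977 UMIs with THP and 59 with vehicle. The gate held fewer cells than the macrophage gate with THP and with vehicle, and its median cell held 3795 and 3582 UMIs against 21182 and 22327 in the macrophage gate. Per cell this came to 0.647 Saa3 UMIs in THP neutrophil-gate cells and 3.45 in THP macrophage-gate cells. Macrophage markers summed to 284.1 CPM and 232.0 CPM in the neutrophil gate, and 1 of the 11 was at 0 in the THP library. In the macrophage gate they summed to 3220 CPM and 3284 CPM. The part of free or engulfed macrophage RNA in the neutrophil value was not tested.

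Within the neutrophil gate the order of Saa3 levels by maturity markers differed between the libraries. Cells with granule markers only had 137.6 CPM (126.1 to 149.7) against 10.98 CPM (8.10 to 14.6). Cells with granule and mature markers had 97.1 CPM (85.1 to 110.4) against 2.64 CPM (1.21 to 5.02). Cells with mature markers only had 223.9 CPM (194.5 to 256.5) against 1.87 CPM (0.227 to 6.76), the highest level of any gate in the THP library. That last value came from 208 UMIs in 23 of 367 THP cells, with 4 cells holding 50% of them, and from 2 UMIs in 514 vehicle cells, so the ratio of 120 has a counting interval of 32.7 to 994. The order among these 3 groups was not tested. Genes 2-fold or more higher with THP made up 1.32%, 2.11% and 4.71% of those compared in the 3 groups.

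Progenitor and monocyte gates also carried the gene. Cells with both progenitor and neutrophil granule markers had 176.6 CPM with THP and 13.86 CPM with vehicle, 12.7-fold apart. Monocyte-gate cells had 88.9 CPM and 8.004 CPM, progenitor-gate cells 88.9 CPM and 11.29 CPM, and cells with both monocyte and progenitor markers 88.1 CPM and 16.67 CPM. The 3 THP values did not differ beyond their counting intervals, and the last pair showed the smallest fold of the gates named so far, 5.29 (4.56 to 6.15). The shares of all genes 2-fold or more higher were 0.647%, 1.04%, 0.505% and 0.527% in these 4 gates.

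Antigen-presenting cells, gated on MHC class II genes, stood lower. Their Saa3 level was 20.7 CPM (17.4 to 24.6) with THP and 3.36 CPM (2.16 to 5.01) with vehicle, and 2 of the 547 THP cells held 50% of the UMIs. Stromal-gate cells had 11.8 CPM from 12 UMIs and 1.38 CPM from 2 UMIs. B-cell-gate cells had 4 UMIs in 85 THP cells and 0 in 60 vehicle cells, where 3 counts would be 10.6 CPM. T or NK cells had 1 UMI in 64 THP cells and 0 in 42 vehicle cells. Mast-cell-gate cells had 0 UMIs in 34 and 14 cells. These gates had few molecules behind each value, and the B cell interval with THP (4.16 to 39.1) covered the antigen-presenting and stromal values.

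**Figure D2:**
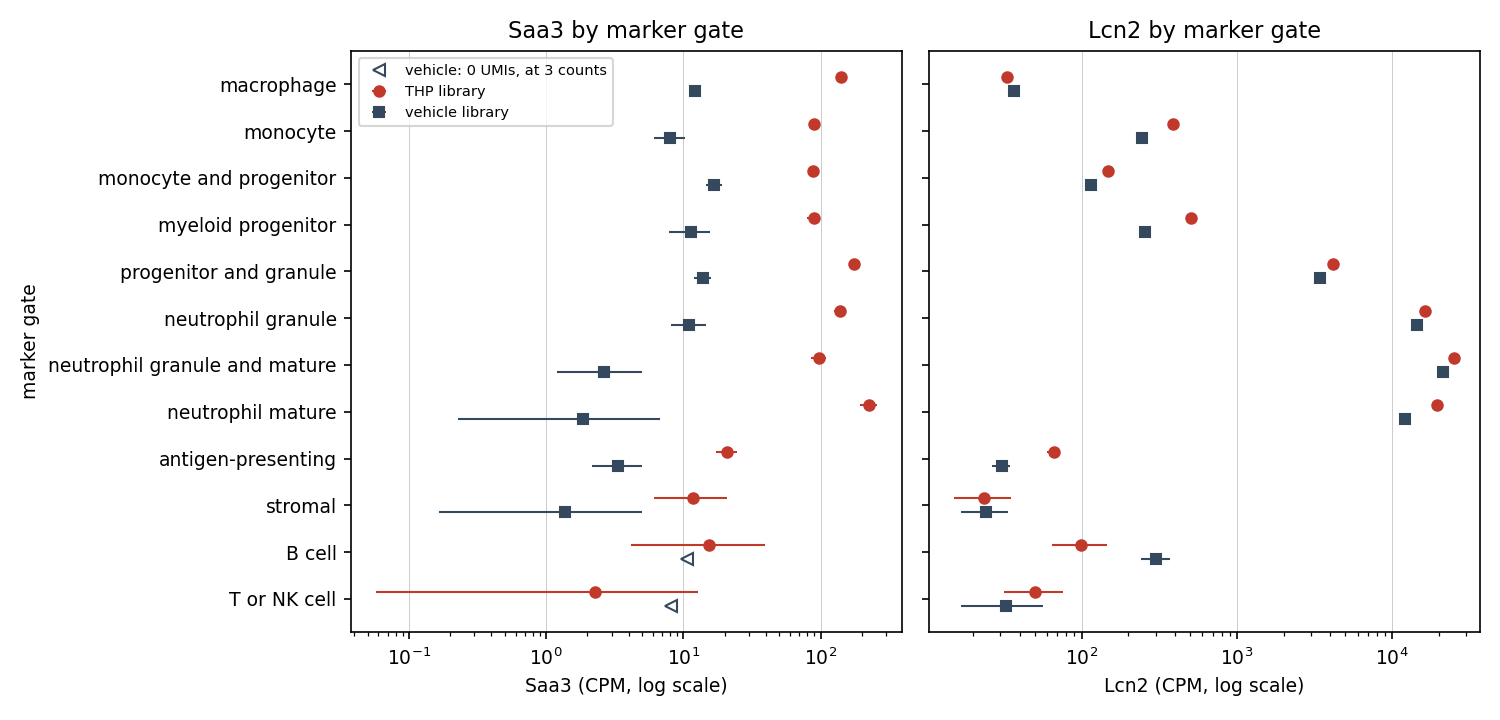
Saa3 (left) and Lcn2 (right) in CPM on log axes for 12 marker gates, with circles for the THP library, squares for the vehicle library and bars for 95% Poisson intervals; open triangles mark 0 UMIs, drawn at 3 counts. Saa3 circles lie right of the squares across the myeloid gates, whereas Lcn2 differs far more between gates than between libraries.

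The share of cells with any Saa3 molecule moved in the same direction as the level. In the macrophage gate 29.2% of THP cells (28.0 to 30.5, exact binomial 95% interval) and 5.08% of vehicle cells (4.304 to 5.95) had at least 1 UMI. With every cell thinned to 2000 UMIs the expected shares were 10.4% and 1.10%, and 9 THP and 5 vehicle cells were too shallow to include. In the neutrophil gate the shares were 12.7% and 0.885%, or 8.76% and 0.573% after thinning, which left out 189 and 410 shallower cells. Cells of the T or NK gate had 1.56% unthinned and 0.469% after thinning with THP and none with vehicle, at median depths of 6496 and 6239 UMIs. Antigen-presenting markers summed to 10227 CPM and 8481 CPM in this gate, against 3151 CPM and 1575 CPM for its own markers. The gate is therefore not a sure lymphoid baseline. B-cell-gate cells had 4.71% unthinned and 2.19% after thinning with THP and none with vehicle, at median depths of 1981 and 3150 UMIs. The macrophage and neutrophil shares with THP lay above the T or NK and B cell values. The thinned T or NK and B cell intervals with THP reached 7.88% and 12.3% because so few cells were counted.

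Saa3 RNA was unevenly spread among cells of 1 gate. In the THP macrophage gate 70.8% of cells had no Saa3 UMI, 10.3% had 1, and 1.56% had 50 or more, with a maximum of 298 in 1 cell. Those 80 cells with 50 or more held 42.3% of the UMIs, and 111 cells (2.16%) held 50%. In the vehicle macrophage gate 94.9% of cells had none, and 7 of 2854 cells (0.245%) held 50%, 1 of them with 180 UMIs. The vehicle level therefore rested on very few cells. Leaving out the top 1% of cells by Saa3 UMIs in each library, an alternative chosen after seeing these data, raised the macrophage log2 ratio from 3.42 to 4.69.

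**Figure D3:**
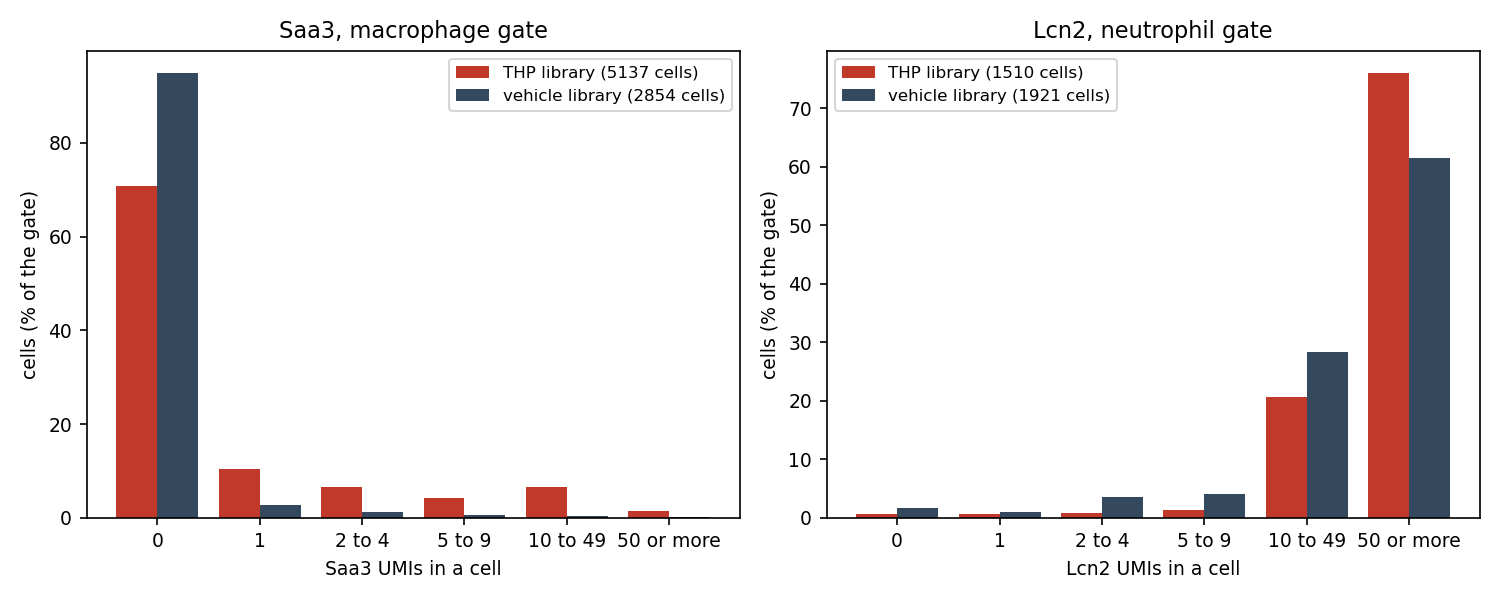
Percent of cells (vertical axis) by number of UMIs in the cell, for Saa3 in the macrophage gate (left) and Lcn2 in the neutrophil gate (right), THP in red and vehicle in dark blue. Saa3 had 0 UMIs in 70.8% and 94.9% of cells, whereas 76.0% and 61.4% of neutrophil-gate cells had 50 or more Lcn2 UMIs.

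Lcn2 followed the neutrophil lineage in both libraries. It stood at 19589 CPM in the neutrophil gate and 33.2 CPM (32.2 to 34.2) in the macrophage gate of the THP library, 590-fold apart (572 to 609). In the vehicle library the levels were 16764 CPM and 37.0 CPM (35.6 to 38.5), 453-fold apart (436 to 471). The neutrophil gate gave 58.0% and 56.1% of all Lcn2 UMIs, and the macrophage gate, with more cells, 1.72% and 0.974%. Some of this contrast follows from the gates, which use other granule genes as markers.

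The neutrophil groups led the order of Lcn2 levels in both libraries. Cells with granule and mature markers were highest, at 25068 CPM with THP and 21227 CPM with vehicle. Cells with granule markers only had 16240 CPM and 14448 CPM, and cells with mature markers only had 19312 CPM and 12018 CPM, so these neighbours changed places between libraries. Cells with progenitor and granule markers followed with 4180 CPM and 3438 CPM. Progenitor-gate cells had 508 CPM and 256 CPM, monocyte-gate cells 388 CPM and 246 CPM, and cells with monocyte and progenitor markers 148 CPM and 114 CPM. In the vehicle library the progenitor and monocyte values did not differ beyond their counting intervals. B-cell-gate cells stood at 300.2 CPM (239.8 to 371.2) with vehicle, above the progenitor and monocyte gates but with overlapping intervals, and at 99.2 CPM (64.8 to 145.4) with THP, below them, from 85 and 26 UMIs.

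Lcn2 was slightly lower in the THP library over all cells but higher in most myeloid gates. Over all cells the levels were 1085 CPM and 1272 CPM, a log2 ratio of -0.23 that turned to 0.06 under TMM scaling and 0.05 under RLE scaling. The ratio was 0.22 in the neutrophil gate, 0.68 in cells with mature markers only, 0.66 in the monocyte gate and 0.98 in the progenitor gate. Of the 9 myeloid gates, counting the 3 neutrophil groups separately, 8 had a ratio above 0 and the macrophage gate did not. None of these but the antigen-presenting gate, at 1.09, reached 2-fold, and there 4 of 547 THP cells held 50% of the UMIs while 1.07% of 7833 genes reached 2-fold upward. When each library was given the same mix of gates, the ratio over all cells was 0.30. The share of kept cells in the neutrophil gate was 12.5% with THP and 17.5% with vehicle, a share that the filters and marker gates help to set.

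After thinning to 2000 UMIs, Lcn2 in the macrophage gate was found in no larger a share of cells than in the B cell and T or NK gates. Monocyte-gate cells stood higher. Unthinned, 40.5% of THP and 50.2% of vehicle macrophage-gate cells had at least 1 Lcn2 UMI. After thinning to 2000 UMIs the shares were 5.61% (5.00 to 6.28) and 6.92% (6.01 to 7.91). B-cell-gate cells, which should lack the gene, had 10.4% and 19.9% after thinning (21.2% and 15 of 60 cells before), and T or NK cells 11.6% and 9.67% (18.8% and 23.8% before), with wide intervals from 42 and 48 B cells and 51 and 38 T or NK cells. The macrophage share lay below all 4 values of these gates, whose intervals ran from 2.4997% to 33.9%, and is not read as expression. The T or NK gate also carried antigen-presenting markers, as given above, so it is not a sure lymphoid baseline. Stromal-gate cells had 5.35% and 4.76% at this depth, from 52 and 41 cells. At 10000 UMIs the macrophage shares were 21.3% and 27.1%. The T or NK shares there were 10.6% and 19.1%, from 14 cells in each library, so the order depended on depth. The macrophage log2 ratio of Lcn2, -0.15, turned to 0.08 under TMM and 0.09 under RLE scaling. Monocyte-gate cells had 29.0% (25.1 to 33.0) and 27.9% (23.9 to 32.2) after thinning. For every 100 UMIs of S100a9, the calprotectin subunit abundant in neutrophils, there were 9.13 and 7.82 Lcn2 UMIs in the macrophage gate and 10.9 and 11.2 in the neutrophil gate. In the progenitor gate there were 2.02 and 1.69, and in the monocyte gate 8.66 and 7.41. Per 100 UMIs of S100a8 the macrophage gate was also lower than the neutrophil gate, at 15.2 and 12.9 against 24.0 and 23.3. Per 100 UMIs of the granule gene Ngp it was higher, at 186 and 128 against 83.3 and 69.9. Camp and Ltf, like Ngp markers on which the gates are cut, also gave higher values in the macrophage gate. Neutrophil granule markers summed to 44.0 CPM and 69.6 CPM in the macrophage gate, with none of the 6 at 0, and their part in its Lcn2 value was not tested. A few macrophage-gate cells stood out, since 51 of 5137 THP cells and 16 of 2854 vehicle cells had 10 or more Lcn2 UMIs. In the THP library the 51 highest cells held 28.8% of that gate's Lcn2 molecules.

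The other granule genes did not all share the neutrophil-gate difference of Lcn2. Of 8 listed companions 3 had a ratio above 0 there and 5 below, with a median of -0.02, and none reached 2-fold in either direction. Under TMM or RLE scaling 5 were above 0 and 3 below, with Ngp and Chil3 changing sign. Ltf, Camp, Ngp and others of the 8 are markers on which the gates are cut, whereas Lcn2 is not. The selection constrains their ratios within a gate, so the comparison with Lcn2 is not like for like. S100a9 and S100a8 had ratios of 0.26 and 0.18, and Camp, the cathelicidin precursor, 0.13. Ltf, which encodes lactoferrin, another iron-binding protein of the specific granule, was at 4536 CPM with THP and 6917 CPM with vehicle, a ratio of -0.61. For every 100 UMIs of Ngp, a granule protein of developing neutrophils, there were 83.3 Lcn2 UMIs with THP and 69.9 with vehicle. Over all cells all 8 companions were below 0 with a median of -0.62 (under TMM scaling S100a9 turned to 0.0059). Ltf, at -1.07, passed 2-fold there but not under TMM or RLE scaling, at -0.78 and -0.79. These values stand beside the smaller neutrophil-gate share of the THP library.

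Saa3 and Lcn2 were found together in macrophage-gate cells about as often as their separate shares give. Over THP cells thinned to 5000 UMIs, Lcn2 was expected in 13.9% of cells with Saa3 (11.6 to 16.5) and 11.7% of cells without it (10.8 to 12.8). The share of cells with both was 1.15 times the product of the separate shares. In the vehicle library the same ratio was 0.975, from only 56.5 expected cells with Saa3. In the THP monocyte gate Lcn2 was expected in 50.9% of cells with Saa3 (39.9 to 61.8) and 36.3% of cells without it (31.7 to 41.1), a ratio of 1.31. In the progenitor gate the shares were 71.5% (57.3 to 83.2) and 51.3% (44.0 to 58.6). Nearly every neutrophil-gate cell had Lcn2, so the ratio of 1.01 carries no information on pairing. These ratios are descriptions over cells of 1 library.

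Other inflammatory genes differed in how they accompanied Saa3 within the THP macrophage gate. Slpi, an antiprotease and antimicrobial protein, was found in 17.7% of cells with Saa3 (15.1 to 20.5) and 7.78% of cells without it (6.99 to 8.62). Acod1, the enzyme that makes itaconate, was found in 41.2% (37.8 to 44.7) and 22.8% (21.6 to 24.1). The complement component C3 was found in 19.8% (17.1 to 22.7) and 13.5% (12.5 to 14.6), and Cebpd in 72.0% (68.8 to 75.0) and 62.3% (60.8 to 63.8). The chemokine gene Cxcl1 was found in 24.7% (21.8 to 27.8) and 18.4% (17.2 to 19.6). For Tnf and Il1b the shares lay closer, with Tnf at 43.1% and 41.2% and Il1b at 13.5% and 13.4%. The neutrophil genes Ngp and Ltf were no more frequent beside Saa3, with Ngp at 8.85% and 9.22% and Ltf at 1.47% and 1.53%. Both belong to the list that bars cells from this gate, which limits what their shares can show. Hp, the hemoglobin-binding acute-phase protein haptoglobin, is on no gate list and was at 7.61% (5.88 to 9.65) and 5.21% (4.56 to 5.92). With THP, Hp, Slpi and C3 were at 1890 CPM, 503 CPM and 597 CPM in the neutrophil gate. In the macrophage gate they were at 13.7 CPM, 28.0 CPM and 34.0 CPM. The part of neutrophil RNA in these pairings was not tested. Lcn2 in the same cells was paired most with Hp, at 9.17% of cells with Lcn2 (7.00 to 11.7) and 5.10% of cells without it (4.47 to 5.79).

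Genes of the acute-phase pathway were described from a list of 77, beside the median of all genes compared. The list was chosen with earlier results of these data known, so no enrichment is read from its counts. In the macrophage gate 42 of the 77 had at least 10 CPM in 1 library, 12 of these were at least 2-fold higher with THP and 3 at least 2-fold lower, with a median log2 ratio of 0.28 against -0.16 for all 7857 genes. In the neutrophil gate 44 had that level, 11 were higher and 2 lower, with a median of 0.17 against -0.28. Among all genes compared, 0.98% were 2-fold or more higher and 2.56% lower in the macrophage gate, and 1.57% higher and 7.21% lower in the neutrophil gate. Under TMM or RLE scaling the list had 14 higher and 2 lower in the macrophage gate and 12 higher and 1 lower in the neutrophil gate. Among all genes, TMM scaling gave 119 higher and 67 lower of 7793 in the macrophage gate and 188 higher and 145 lower of 6895 in the neutrophil gate, and RLE scaling gave 120 and 65 and 190 and 145.

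The other serum amyloid A genes were nearly silent. Saa1 had 0 UMIs in both libraries, Saa2 had 2 and Saa4 had 1 in the THP library and none with vehicle. The 4 genes lie within 42316 bases of chromosome 7, and Saa1 and Saa2 are near-identical copies whose reads may be dropped in counting. Of 25 other acute-phase proteins 6 were measured in the macrophage gate and all 6 had ratios between 0.24 and 0.78, so none reached 2-fold. Under TMM or RLE scaling Slpi passed it, at 1.01 and 1.02.

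Of the 6 listed inducing ligands, Il1b and Tnf had at least 10 CPM and were at least 2-fold higher with THP in the macrophage and neutrophil gates. In the macrophage gate Il1b stood at 56.4 CPM and 2.31 CPM, a log2 ratio of 4.12, and Tnf at 147 CPM and 25.1 CPM, a ratio of 2.51. Il1b in the neutrophil gate was at 316 CPM and 84.6 CPM, a ratio of 1.89, and Tnf at 86.9 CPM and 29.2 CPM, a ratio of 1.54. Osm, the cytokine oncostatin M, was measured in the neutrophil gate only, at 27.2 CPM and 25.6 CPM, a ratio of 0.089. Il1b and Tnf were the only 2 of the 6 with at least 10 CPM in the macrophage gate. Below that level, Il1a was also higher there, at 4.01 CPM (3.67 to 4.38) and 0.848 CPM (0.646 to 1.09), a ratio of 1.44. Il6, Osm and Lif were also below 10 CPM in that gate.

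Receptors upstream differed in both directions. Cd14, the co-receptor for lipopolysaccharide, was at 1071 CPM and 421 CPM in the macrophage gate, and Tlr2 at 101 CPM and 39.5 CPM, ratios of 1.35 and 1.34. Tlr4, the receptor for lipopolysaccharide, was lower with THP, at 13.1 CPM and 35.2 CPM, a ratio of -1.35, and Il6ra, the interleukin 6 receptor, was at 20.6 CPM and 42.5 CPM, a ratio of -1.01 that became -0.78 under TMM scaling and so missed 2-fold. Neutrophil-gate ratios were 1.92 for Cd14, 1.11 for Tlr2, -0.64 for Tlr4 and -1.41 for Il6ra.

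Transcription factors and feedback regulators upstream were mostly higher in the macrophage gate, where 5 of 10 measured reached 2-fold upward and none downward. Nfkbiz, which encodes IκBζ, was at 55.7 CPM and 10.9 CPM, a ratio of 2.25, but in the neutrophil gate at 63.3 CPM and 46.6 CPM, a ratio of 0.44. Cebpd, a C/EBP factor of the acute phase, was at 276.5 CPM and 83.4 CPM in the macrophage gate, a ratio of 1.72, and at 431 CPM and 438 CPM in the neutrophil gate, a ratio of -0.02 that turned to 0.27 under TMM or RLE scaling. Bcl3, a nuclear cofactor of NF-kB, had ratios of 1.37 and 1.66 in the macrophage and neutrophil gates. Nfkbia, the inhibitor of NF-kB that NF-kB itself induces, had 1.47 and 1.70, and Socs3, the brake on interleukin 6 signalling, 2.58 and 1.23. Whether the ratios differ between gates was not tested.

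Receptors and iron genes completed the list. The formyl peptide receptor genes Fpr1 and Fpr2, the second a proposed receptor of serum amyloid A, were at 51.5 CPM and 11.4 CPM and at 87.9 CPM and 29.6 CPM in the macrophage gate, ratios of 2.09 and 1.54. Slc40a1, the iron exporter ferroportin, was lower at 20.97 CPM and 89.1 CPM, a ratio of -2.04. Slc11a2, an importer of ferrous iron, was higher at 48.6 CPM and 21.1 CPM, a ratio of 1.16. Neutrophil-gate cells gave Fpr1 a ratio of 1.22, Fpr2 0.58 and Slc40a1 -0.98.

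**Figure D4:**
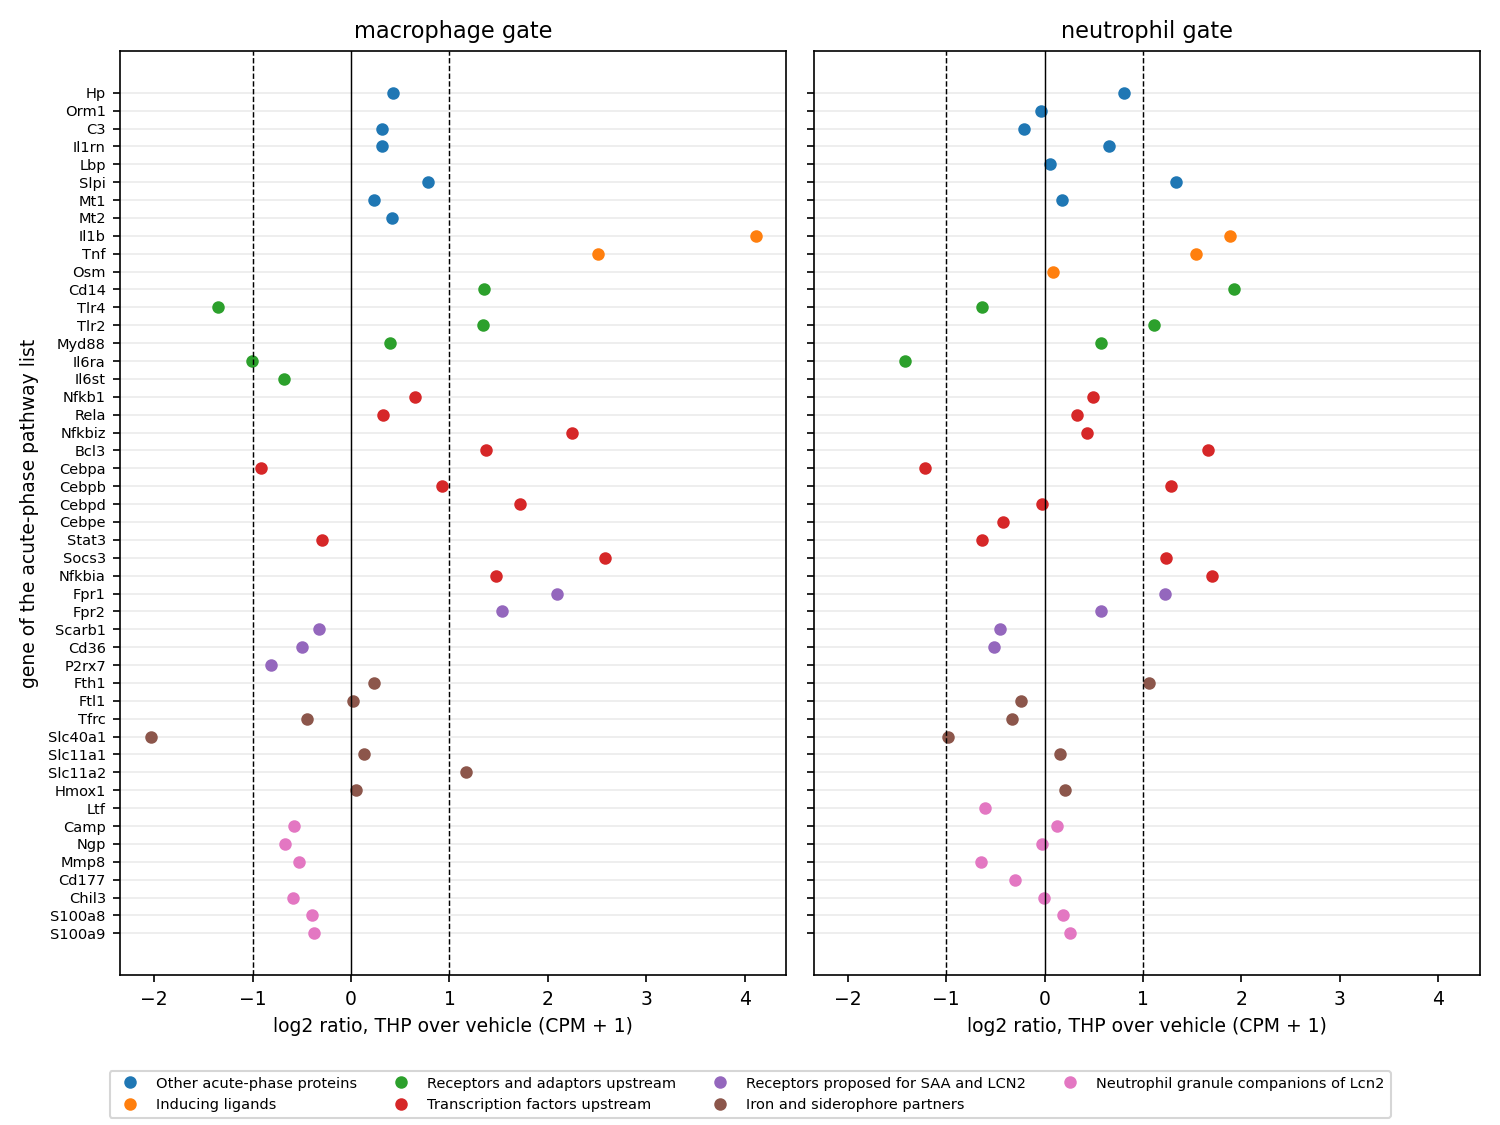
Log2 ratio of THP over vehicle (CPM + 1) for the pathway-list genes with at least 10 CPM in 1 library, in the macrophage gate (left) and the neutrophil gate (right), coloured by role, with dashed lines at 2-fold. Il1b lies farthest right in the macrophage gate at 4.12, and the 6 granule companions of Lcn2 measured there lie below 0, as they also did under TMM and RLE scaling. Ngp and Camp among them belong to the marker list that bars cells from this gate.

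The genes most like each member were sought over 22 combinations of gate and library with at least 50 cells, by Pearson's correlation of log2(CPM + 1), as a description over points that share libraries and depth. For Saa3 these were Sod2, the mitochondrial superoxide dismutase, at 0.90, Trim13 at 0.90, the fatty acid receptor gene Gpr84 at 0.83, the stress kinase gene Mapkapk2 at 0.81 and Paf1 at 0.76. Sod2 was at 567 CPM with THP and 194.6 CPM with vehicle in the macrophage gate and at 1565 CPM and 95.4 CPM in cells with mature neutrophil markers, the group where Saa3 was also highest with THP but not with vehicle. These correlations include the difference between libraries on which Saa3 was chosen. Within 1 library other genes led for Saa3, Brpf1 at 0.95 over the THP points and Polq at 0.96 over the vehicle points, both named after their values were seen. For Lcn2 they were Pglyrp1, a peptidoglycan-binding granule protein, at 0.98, and S100a9, S100a8, Pi16 and Mcemp1 at 0.97 each. Saa3 and Lcn2 themselves had a correlation of 0.21 over these points. Within the 12 THP points it was 0.66 and within the 10 vehicle points -0.15. The stromal and T or NK gates had at least 50 cells only with THP, so these values cover unlike sets of gates.

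**Figure D5:**
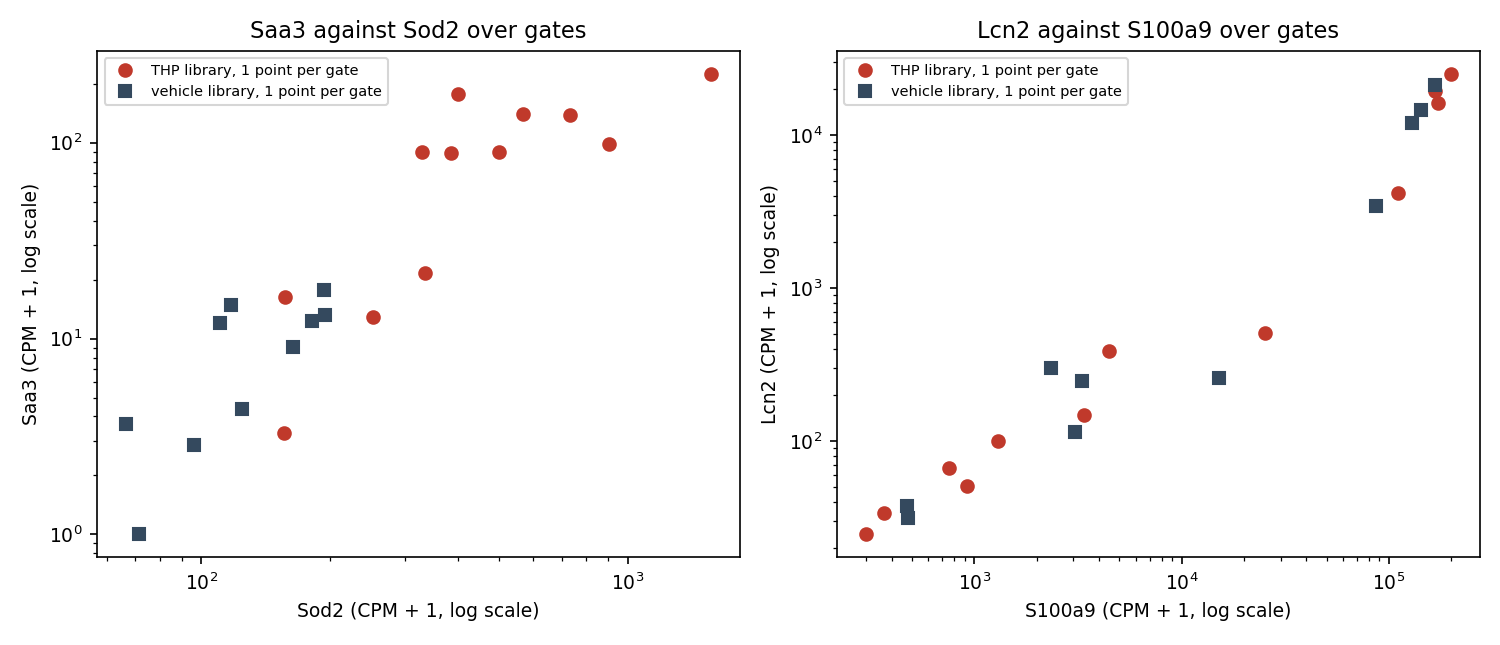
Level of Saa3 against Sod2 (left) and of Lcn2 against S100a9 (right), CPM + 1 on log axes, 1 point per gate and library with at least 50 cells, THP as circles and vehicle as squares. Saa3 separates by library as well as by gate, whereas Lcn2 points of both libraries follow 1 course from low S100a9 to the neutrophil gates.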

How the data were processed

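The deposited matrices give a count of UMIs for each gene in each barcode, not normalized, per the file headers (software version 3.1.0, format version 2). Cell Ranger, bcl2fastq, STAR and the mm10 build are named in the submitters' processing notes. No source used here names the annotation release. Barcodes with at least 500 genes, 1000 UMIs and at most 10% mitochondrial UMIs were kept, and 42 barcode sequences occurred in both libraries. No doublet caller was applied, and cells passing conflicting marker lists were set apart.

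UMIs were summed per gate and library and scaled to CPM. Ratios are log2(CPM + 1), which understates changes of low genes. The size rule was at least 10 CPM in 1 library and at least 2-fold. With 1 library per group no p-value was computed. Thinned shares are the exact expected shares when each cell is reduced to a fixed number of UMIs. Calculations used Python 3.11.15, numpy 2.4.6, scipy 1.17.1 and edgeR 4.0.16 (TMM factors only), and the size rule was tested on simulated data.

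A cell entered a gate with at least 6 of 11 macrophage, 4 of 6 monocyte, 3 of 6 mature or granule neutrophil, 4 of 7 progenitor, 4 of 7 antigen-presenting or 3 lymphoid, stromal or mast markers, and no conflicting list. Members and lists were chosen with earlier results of these data known. The bar that keeps cells with neutrophil or progenitor markers out of the lymphoid, stromal and mast gates was added after Lcn2 values had been seen. Without it, 91 and 63 cells in the B cell gate had Lcn2 at 1439 CPM and 627 CPM instead of 99.2 CPM and 300.2 CPM. Genes named were the members, the pathway genes past the size rule in all cells or the macrophage gate, the 5 most correlated with each member, and the genes set for co-detection. Camp, Chil3, Cp, Il1a, Saa1, Saa2 and Saa4 were named beside them after their values were seen.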

Additional observations from a re-analysis of the deposited data

Results flagged for a closer look

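The log2 ratio of Lcn2 was 0.22 in the neutrophil gate and -0.15 in the macrophage gate, so the gates lay on opposite sides of 0. The difference between gates was not tested, and the macrophage value turned above 0 under TMM and RLE scaling.

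Barcodes left out by the filters also carried both genes. In the 1070 left-out THP barcodes Saa3 stood at 82.5 CPM (71.2 to 95.1), against 2.80 CPM (0.762 to 7.16) in the 606 left-out vehicle barcodes. Lcn2 stood at 2188 CPM (2128 to 2249) and 1639 CPM (1573 to 1706) in the same barcodes.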

How the results depend on the processing

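No paired analysis was possible because each group had 1 library. Saa3 kept a positive ratio under the 25 alternatives run. Over all cells it was 3.66 with TMM factors, 3.65 with RLE factors, 3.30 without the top 5% of cells by UMIs, 3.53 with equal weight per cell and 3.49 with a pseudocount of 0.1 CPM. In the macrophage gate it was 3.66 with TMM and 3.67 with RLE factors and 4.69 without the top 1% of cells by the gene's UMIs. In the neutrophil gate it was 4.74 with equal weight per cell, 4.81 with 1 more marker, 4.57 with markers needing 2 UMIs and 6.45 without the top 1% of cells, which left the vehicle library at 0 UMIs.

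Lcn2 over all cells turned to 0.056 with TMM factors, 0.049 with RLE factors and 0.30 with the same mix of gates, and was -0.22 with all barcodes and -0.12 with equal weight per cell. In the macrophage gate it turned to 0.085 with TMM factors, 0.095 with RLE factors and 0.033 with markers needing 2 UMIs, and was -0.33 without the top 1% of cells. In the neutrophil gate it was 0.51 with TMM and 0.52 with RLE factors, 0.31 with equal weight per cell and 0.18 with 1 more marker. In the B cell gate the Lcn2 ratio turned from -1.59 to 1.20 when cells with neutrophil or progenitor markers were kept.

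The size rule of 73 genes higher and 238 lower became 138 and 69 under TMM and the same counts under RLE factors, and 187 and 1387 at 1.5-fold. Co-detection in the macrophage gate stayed between 1.10 and 1.16 over 4 alternatives. The settings with 2-UMI markers, without the top 1% of cells and without the B cell bar were chosen after seeing the data. Apart from the changes of cells or scaling themselves, the cause was not tested. Counts in the lymphoid, stromal and mast gates were too few for narrow intervals.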
